A study of Mus musculus with 6 samples.

Results

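Genes of DNA replication and of S phase, 41 in number, were followed across 6 single-colour Affymetrix arrays of total RNA from RW4 mouse embryonic stem cells. The members were chosen by gene symbol, with earlier results of these data known. They were the origin recognition and licensing factors, the subunits of the replicative helicase and its activators, and DNA polymerases with their clamp and clamp loader. Single-strand binding and strand-joining proteins were included, as were factors of S phase entry and nucleotide supply. All 41 were found in the deposited table, on 43 probe sets, among 19938 genes in all; Pcna and Rpa3 had 2 probe sets each, and the brightest probe set stood for each gene. None of the 43 probe sets listed several symbols.

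The arrays formed 3 groups of 2. They held untreated cells, cells given 1 µM 4-hydroxytamoxifen (4OHT), a ligand of the estrogen receptor that switches on proteins fused to its ERT2 form, and cells given 1 µM Shld1, a synthetic ligand that keeps FKBP-tagged proteins from being degraded. The labels give the induction system as WT for the untreated cells, ERT2 for the 4OHT cells and FKBP for the Shld1 cells. They do not say whether the treated cells carried such a fusion, so that an effect of an agent and of a fusion cannot be told apart. All groups grew on gelatin in 10% newborn calf serum, 10% fetal bovine serum and 1000 U/mL leukemia inhibitory factor. Every culture was also supplied with nucleosides at 0.3 mM each, thymidine among them. How long the cells were treated the labels do not say, and the labels call the arrays of a group duplicates without saying that they came from separate cultures, so the tests measure the spread between these arrays, which may be technical.

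Replication is prepared in G1, when the origin recognition complex (Orc1 to Orc6) with Cdc6 and Cdt1 loads the ring of Mcm2 to Mcm7 onto DNA, a step called licensing that geminin (Gmnn) blocks once S phase has begun. The ring becomes an active helicase when Cdc45 and the GINS complex bind it, DNA polymerases then copy both strands behind it, and the E2F factors switch on many of these genes as cells leave G1. Mouse embryonic stem cells divide rapidly with a short G1 and a large share of cells in S phase, and keep high levels of cyclin E and of many E2F targets.

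The members were first examined for what their promoters share, which the choice of members had not used. RefSeq windows of 300 bases on GRCm38.p6, from 250 bases before to 50 after an annotated start, were at hand for 34 of the 41 members, all but Mcm4, Gmnn, Gins1, Gins2, Gins4, Pole and Rfc2. Of these, 13 (38.2%) held at least 1 of the E2F-like letter runs TTTCCCGC, TTTCGCGC, TTTGCCGC or TTTGGCGC on either strand, against 2.6% of 27025 genes with such a window and 3.48% of the 15614 that were also on the array. The 13 were Mcm3, Mcm5, Mcm6, Mcm7, Orc1, Orc3, Cdc6, Cdt1, Gins3, Pola1, Pold1, Rfc3 and Lig1. The CCAAT box, read as CCAAT on either strand, was in the windows of 22 of the 34 members (64.7%). It was in those of 41.1% of all genes with a window and of 41.7% of those on the array. Windows of members were richer in G and C, with a median of 61.3% against 52.7% over all windows and 57.3% over those of genes on the array. No test was made of these shares. In other lists of the cell cycle, genes with a window were counted. The E2F-like letters were found for 12 of 40 further replication genes and 9 of 23 G1 to S control genes. They were found for 0 of 16 nucleotide supply genes and 1 of 14 G2 and M phase genes. The members Ccne1, E2f1, Rrm1, Rrm2 and Tyms had windows without them. CCAAT was found for 19 of the 40, 14 of the 23, 7 of the 16 and 12 of the 14. Of cell type markers with a window, 4 of 6 stem cell, 3 of 5 neural and 2 of 5 trophoblast genes held CCAAT. For endoderm and for mesoderm markers it was 1 of 2, and for fibroblast markers 1 of 3.

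The 170 bases before the start are shown for 7 of the 9 members with E2F-like letters in that stretch (Orc3 and Pola1 are the others), to set licensing, activator and clamp loader genes side by side, with E2F-like and CCAAT letters in capitals and each sequence running 5′ to 3′ along the gene. Matches on opposite strands can overlap: the first run of capitals in Mcm5 and in Mcm6 is 2 E2F-like matches each.
Mcm5, chr8:75109339-75109508, plus strand: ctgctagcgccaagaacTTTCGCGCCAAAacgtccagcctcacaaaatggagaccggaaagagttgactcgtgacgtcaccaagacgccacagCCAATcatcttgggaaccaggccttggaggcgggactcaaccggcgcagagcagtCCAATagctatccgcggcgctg
Mcm6, chr1:128359706-128359875, minus strand: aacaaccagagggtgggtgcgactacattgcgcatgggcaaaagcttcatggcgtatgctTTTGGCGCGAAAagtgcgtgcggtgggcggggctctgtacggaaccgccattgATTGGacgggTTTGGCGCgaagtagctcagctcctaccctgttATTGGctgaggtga
Mcm7, chr5:138171884-138172053, minus strand: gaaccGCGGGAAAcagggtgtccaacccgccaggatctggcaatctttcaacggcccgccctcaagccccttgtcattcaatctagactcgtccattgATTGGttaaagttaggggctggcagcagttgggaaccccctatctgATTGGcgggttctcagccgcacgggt
Orc1, chr4:108579284-108579453, plus strand: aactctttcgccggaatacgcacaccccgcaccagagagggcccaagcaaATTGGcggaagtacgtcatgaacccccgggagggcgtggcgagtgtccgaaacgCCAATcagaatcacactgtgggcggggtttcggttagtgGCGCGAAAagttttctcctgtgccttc
Cdc6, chr11:98907981-98908150, plus strand: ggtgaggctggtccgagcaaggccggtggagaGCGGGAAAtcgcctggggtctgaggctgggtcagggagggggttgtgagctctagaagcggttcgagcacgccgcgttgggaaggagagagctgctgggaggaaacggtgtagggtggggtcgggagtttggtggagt
Gins3, chr8:95633389-95633558, plus strand: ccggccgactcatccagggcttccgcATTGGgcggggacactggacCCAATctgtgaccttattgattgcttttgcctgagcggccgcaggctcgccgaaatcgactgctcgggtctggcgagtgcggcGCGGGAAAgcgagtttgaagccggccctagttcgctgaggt
Rfc3, chr5:151651209-151651378, minus strand: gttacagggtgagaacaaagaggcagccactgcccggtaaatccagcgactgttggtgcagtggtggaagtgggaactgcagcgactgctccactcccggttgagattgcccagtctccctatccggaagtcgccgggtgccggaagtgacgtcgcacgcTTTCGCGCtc
Mcm6 held the most, 3 E2F-like matches and 2 CCAAT boxes before its start, and Mcm5 held 2 of each. In Rfc3 the letters run from base 10 to base 3 before the start, and a further match begins at the start itself. A match is a run of letters, not a measured site of binding, and no match in a window says only that these letters are not in it.

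**Figure D1:**
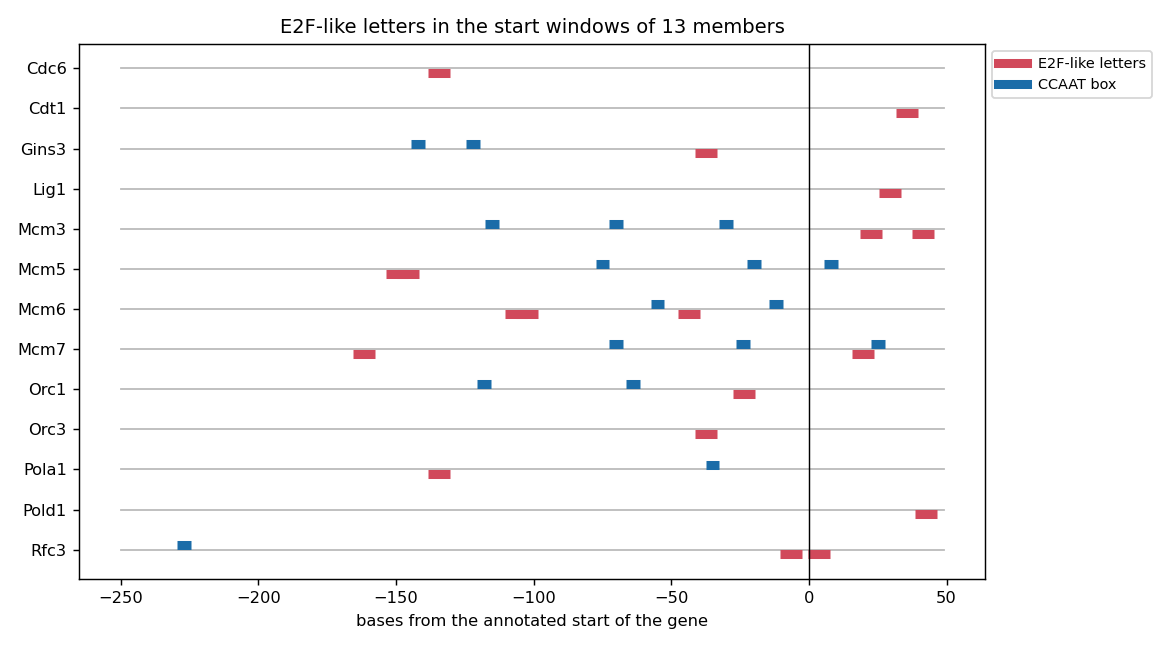
Positions of E2F-like letters (red) and CCAAT boxes (blue) in the start windows of the 13 members with E2F-like letters; the horizontal axis is the distance in bases from the annotated start and each line is one window of 300 bases. Of 19 E2F-like matches, 12 lay wholly before the start and 7 at or after it.

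In untreated cells every one of the 41 members gave a signal above background. The background level was set at 3.71 on the log2 scale, below which 95% of 1027 olfactory receptor genes lay, and 63.8% of all genes lay above it. All 41 also lay above 4.54, the 99th percentile of the olfactory receptor genes. Member signals had a median of 7.39 on the log2 scale, where the median gene had 4.58. Signals of different probe sets are not amounts of RNA, because probes differ in brightness, so the order of members is no order of expression.

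The helicase ring gave strong and steady signals. Mcm6 read 9.46 and 9.46 untreated, 9.33 and 9.54 with 4OHT, and 9.41 and 9.46 with Shld1. Mean untreated signals of the other ring subunits were 8.81 ± 0.054 for Mcm2, 8.85 ± 0.00028 for Mcm3, 8.12 ± 0.014 for Mcm4, 7.62 ± 0.021 for Mcm5 and 8.72 ± 0.096 for Mcm7 (SD, n = 2, as for all means here). Mcm5 was the steadiest of the 41, with 0.083 between its lowest and highest array. The origin recognition genes ran from 6.17 ± 0.031 for Orc4 to 8.50 ± 0.085 for Orc6, with Orc5 at 7.003, Orc1 at 7.25, Orc3 at 7.61 and Orc2 at 8.05.

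Of the other licensing genes, Cdt1, which brings the ring to the origin, was at 7.03 ± 0.029, and Cdc6, the ATPase that works beside it, at 6.09 ± 0.17. Gmnn, the inhibitor of Cdt1, read 5.79 and 6.02 untreated, 5.64 and 5.96 with 4OHT, and 5.997 and 5.97 with Shld1. Both 4OHT arrays were below both Shld1 arrays for Gmnn, and the untreated arrays overlapped with each treated group.

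Among the helicase activators, Cdc45 was at 7.58 ± 0.016, Mcm10, which helps to start unwinding, at 7.23 ± 0.062, and the GINS genes Gins1, Gins2 and Gins4 at 6.53, 7.15 and 7.89. Gins3 was the dimmest of the 41, at 5.08 and 4.65 untreated, 4.72 and 5.01 with 4OHT, and 4.74 and 5.09 with Shld1. Its untreated arrays were 0.43 apart, nearly its whole spread over the 6 arrays, and the 3 groups overlapped.

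Pcna, the sliding clamp that holds polymerases on DNA, had the strongest signal, 10.41 and 10.50 untreated, 10.47 and 10.59 with 4OHT, and 10.48 and 10.56 with Shld1. Its other probe set read 10.39 and 10.47 untreated, 10.45 and 10.56 with 4OHT, and 10.45 and 10.52 with Shld1. Near-identical copies of a gene can share probes, so the Pcna values are uncertain as a reading of a single locus. The clamp loader, which opens the clamp and sets it on DNA, ranged from 6.67 for Rfc2 to 8.97 for Rfc5, whose arrays read 8.97 and 8.97 untreated, 8.96 and 8.97 with 4OHT, and 9.13 and 8.81 with Shld1. Polymerase genes were at 7.01 (Pola1, of the polymerase that starts each fragment), 7.14 (Pole, of the leading-strand polymerase) and 7.37 (Pold1), and the primase subunit Prim1 at 7.95.

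The subunits of the single-strand binding protein RPA were at 7.37 (Rpa1), 7.39 (Rpa2) and 6.80 (Rpa3). Lig1, the ligase that joins the fragments of the lagging strand, was at 8.05 ± 0.075, and Fen1, the nuclease that trims them, at 5.70 ± 0.077. Ccne1, which encodes cyclin E1, was at 8.41 ± 0.081, and E2f1 at 6.76 ± 0.095. The ribonucleotide reductase subunits Rrm1 and Rrm2, which make deoxynucleotides, were at 8.40 ± 0.20 and 8.41 ± 0.17, and Tyms, thymidylate synthase, at 7.46 ± 0.13. All 5 genes of S phase entry and nucleotide supply read lower on untreated replicate 1 than on replicate 2, by a median of 0.18, so a shift of this size arose between arrays of the same group.

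**Figure D2:**
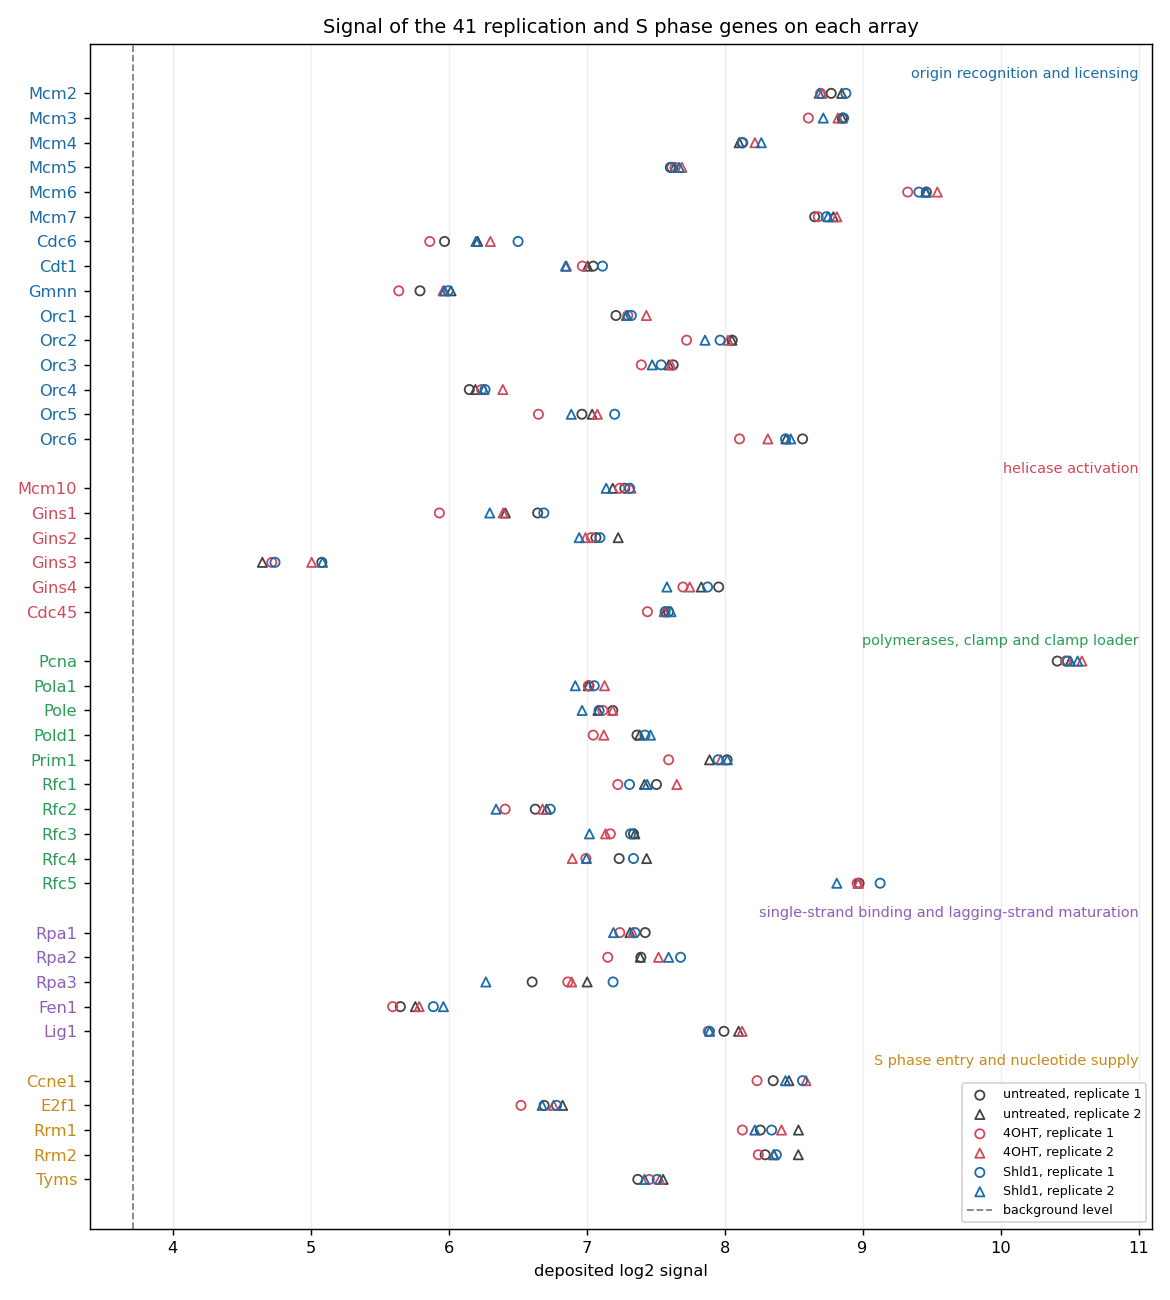
Deposited log2 signal of each of the 41 members (rows, coloured by role) on the 6 arrays; circles are replicate 1, triangles replicate 2, colours the groups, and the dashed line the background level of 3.71. The points of a gene lie close together: 38 of the 41 members stayed within 1.5-fold over all 6 arrays, and Rpa3 has the widest spread.

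The spread of members over all 6 arrays had a median of 0.30 on the log2 scale. The 3 members that went beyond 1.5-fold were Rpa3, Gins1 and Cdc6. Rpa3 was at 6.61 and 7.004 untreated, 6.86 and 6.89 with 4OHT, and 7.19 and 6.27 with Shld1, so the 2 Shld1 arrays lay on either side of all others. Its dimmer probe set read 5.23 and 4.73 on the same Shld1 arrays, again the highest and the lowest of its 6 values. It was the 1 member (2.44%) whose arrays of a group differed by over 1.5-fold, against 6.88% of all genes with Shld1. The median distance between replicates of the members was 0.094 on the untreated arrays, 0.13 with 4OHT and 0.12 with Shld1, where genes at the members' signal levels had 0.098, 0.16 and 0.17 and all genes 0.12, 0.17 and 0.20.

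With 4OHT no member passed the test. Of 19938 genes 0 (0%) were called in 4OHT against untreated by limma after Benjamini-Hochberg adjustment over all genes, hence 0 of 41 members, and the smallest adjusted p of a member was 0.96. At an unadjusted p under 0.05 there was 1 member (2.44%), beside 995 genes (4.99%) of the whole table. The median member difference was -0.08 on the log2 scale, with 29 of 41 below 0 (70.7%), where all genes had a median of -0.01 and 52.2% below 0. These shares rested on 1 array: on 4OHT replicate 1, 34 of 41 members were below the untreated mean with a median of -0.17, and on replicate 2, 15 of 41 with a median of 0.05. Without replicate 1 the median difference was therefore 0.05. All roles were low on replicate 1: 11 of 15 licensing genes, 5 of 6 activators, 9 of 10 polymerase, clamp and loader genes, 4 of 5 binding and maturation genes and 5 of 5 genes of S phase entry and nucleotide supply were below the untreated mean. The 7 members above it were Mcm4, Mcm5, Mcm10, Orc1, Orc4, Pcna and Rpa3.

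Signals on 4OHT replicate 1 were less spread out, with an SD of 2.29 over all probe sets, against 2.33 to 2.35 on both untreated arrays, 4OHT replicate 2 and Shld1 replicate 1; Shld1 replicate 2 had the narrowest, 2.24. Bright genes in general were lower on both narrow arrays. The 8945 genes with mean signals in the members' range, from 4.88 to 10.50, had medians of -0.12 on 4OHT replicate 1 and -0.11 on Shld1 replicate 2, against -0.01 and 0.02 on the other treated arrays. Of those genes 66.9% were below 0 in 4OHT against untreated. With quantile normalization 23 of 41 members (56.1%) were below 0 and with centring on the 75th percentile 22 (53.7%), with medians of -0.03 and -0.04. Of all genes 52.8% and 41.4% were then below 0, with medians of -0.012 and 0.036. What part the array took in the shift was not tested.

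**Figure D3:**
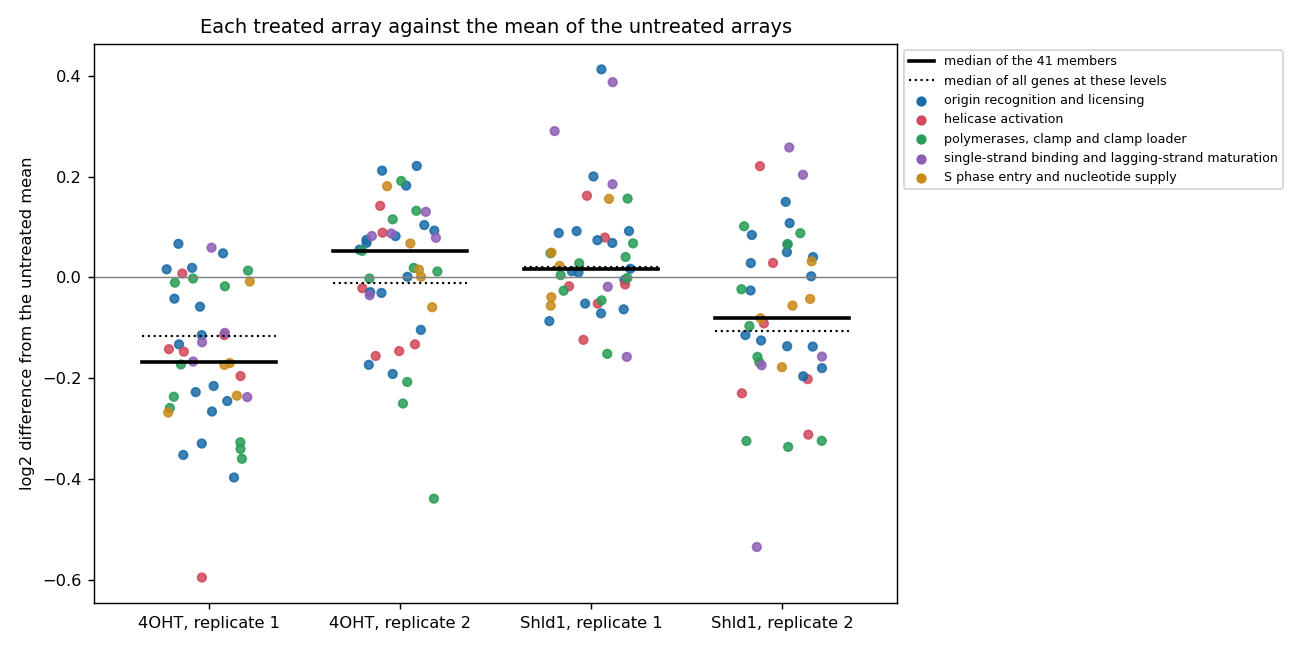
Log2 difference of each member from the untreated mean on each of the 4 treated arrays; points are members coloured by role, solid bars the median of the 41 members and dotted bars the median of the 8945 genes at their signal levels. The members lie mostly below 0 on 4OHT replicate 1 (median -0.17) and Shld1 replicate 2 (-0.08), and near or above 0 on the other arrays (0.05 and 0.02).

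The member with the largest statistic in this comparison was Rfc4, a subunit of the clamp loader. It read 7.24 and 7.43 untreated, 6.99 and 6.90 with 4OHT, and 7.34 and 6.999 with Shld1. Both 4OHT arrays were below both untreated arrays, and Shld1 replicate 2 lay at the level of 4OHT replicate 1. The difference with 4OHT was -0.39 (SE 0.16, 95% interval -0.76 to -0.024; limma, adjusted p = 0.96, unadjusted p = 0.0389), a 1.31-fold lower signal. It was -0.49 to -0.29 when single arrays were left out.

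Pold1, the catalytic subunit of polymerase delta, which copies the lagging strand, read 7.36 and 7.38 untreated, 7.05 and 7.12 with 4OHT, and 7.42 and 7.46 with Shld1. The arrays of each group were close together, with those of 4OHT below and those of Shld1 above the untreated pair; 1 member and 2.72% of all genes had their agents on opposite sides in this way. The difference was -0.29 with 4OHT (SE 0.14, 95% interval -0.59 to 0.017; limma, adjusted p = 0.96). Orc6, the smallest subunit of the origin recognition complex, read 8.56 and 8.44 untreated, 8.11 and 8.31 with 4OHT, and 8.44 and 8.48 with Shld1. Both 4OHT arrays were the lowest of the 6. Its difference with 4OHT was -0.29 (SE 0.15; limma, adjusted p = 0.96), and -0.19 without replicate 1.

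Gins1, a subunit of GINS, read 6.65 and 6.41 untreated, 5.93 and 6.40 with 4OHT, and 6.69 and 6.30 with Shld1. The second 4OHT array lay just under the lower untreated one. The difference of -0.36 (SE 0.20; limma, adjusted p = 0.96) was -0.13 without 4OHT replicate 1. Orc2, another subunit of the origin recognition complex, read 8.05 and 8.05 untreated, 7.72 and 8.02 with 4OHT, and 7.97 and 7.86 with Shld1. It differed by -0.18 (SE 0.15) with 4OHT, and by -0.029 without the first 4OHT array. Rfc3, of the clamp loader, read 7.34 and 7.35 untreated, 7.17 and 7.14 with 4OHT, and 7.32 and 7.02 with Shld1. Both 4OHT arrays were below both untreated arrays, and the difference was -0.19 (SE 0.15).

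By role, 10 of 15 licensing genes were below 0 with 4OHT, 5 of 6 activators, 7 of 10 polymerase, clamp and loader genes, 4 of 5 binding and maturation genes, and 3 of 5 genes of S phase entry and nucleotide supply. After quantile normalization and after centring on the 75th percentile these counts were 9 and 8 for licensing, 5 and 4 for activators, 5 and 5 for polymerase, clamp and loader genes, 1 and 2 for binding and maturation genes, whose median then lay at 0.007 and 0.001, and 3 and 3 for S phase entry and nucleotide supply. Subunits of the ring and of the origin recognition complex lay on both sides of 0. Of the ring, Mcm4, Mcm5 and Mcm7 were above 0 and Mcm2, Mcm3 and Mcm6 below, all between -0.14 and 0.06, and Mcm6 was above 0 with centring on the 75th percentile. Orc1 and Orc4 were above untreated on both 4OHT arrays (0.11 and 0.14 on average), while Orc2 and Orc6 were below on both, and these 4 signs held under both other scalings. All 4 GINS genes were below 0 (3 of 4 with centring on the 75th percentile), with a median of -0.15. All 5 loader genes were below 0, with a median of -0.12, but Rfc1 and Rfc5 were above 0 under both other scalings.

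Both 4OHT arrays lay below both untreated arrays for 12 members (29.3%), beside 20.4% of all genes and 29.7% of genes at the members' signal levels. The 12 were Mcm2, Mcm3, Cdt1, Orc2, Orc6, Cdc45, Gins1, Gins2, Gins4, Pold1, Rfc3 and Rfc4. They lay above for 4 members, Mcm4, Mcm5, Orc1 and Orc4 (9.76%), beside 17.3% and 10.6%. The members' shares were near those of genes with like signals. For 36 of 41 members (87.8%) the 95% interval stayed inside 1.5-fold, and for all 41 inside 2-fold. All genes had 72.1% and 98.8%, and genes at the members' signal levels 78.1% and 99.2%. The intervals are per gene. Members reaching past 1.5-fold were Rfc4, Gins1, Orc6 and Pold1 on the lower side and Rpa3 on the upper.

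With Shld1 no member passed either. Over all 19938 genes limma made 0 calls (0%) after Benjamini-Hochberg adjustment, so 0 of 41 members, with a smallest adjusted p of 0.999 for a member. At an unadjusted p under 0.05 there were 0 members, beside 866 genes (4.34%). The median difference was -0.03 with 24 of 41 members below 0 (58.5%), beside -0.0043 and 51.1% over all genes; of genes at the members' signal levels 62.7% were below 0. The direction turned with the scaling: 15 of 41 (36.6%) were below 0 after quantile normalization and 18 (43.9%) with centring on the 75th percentile, and 17 without Shld1 replicate 2, with medians of 0.023, 0.006 and 0.017. Of all genes 49.6%, 42.7% and 50.8% were below 0 in these 3 settings.

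Rpa2, the RPA subunit that checkpoint kinases phosphorylate, had the largest statistic. It read 7.39 and 7.39 untreated, 7.15 and 7.52 with 4OHT, and 7.68 and 7.59 with Shld1. Both Shld1 arrays were the highest of the 6. Its difference with Shld1 was 0.25 (SE 0.16, 95% interval -0.11 to 0.60; limma, adjusted p = 0.999).

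Fen1 read 5.65 and 5.76 untreated, 5.59 and 5.79 with 4OHT, and 5.89 and 5.96 with Shld1. Its Shld1 arrays were again the highest, and the difference was 0.22 (SE 0.14; limma, adjusted p = 0.999). Cdc6 read 5.97 and 6.21 untreated, 5.86 and 6.30 with 4OHT, and 6.50 and 6.20 with Shld1. The groups overlapped, and its difference of 0.26 (SE 0.19) was 0.11 without the first Shld1 array and 0.14 without the first untreated one. Lig1 read 7.995 and 8.10 untreated, 7.88 and 8.13 with 4OHT, and 7.89 and 7.89 with Shld1. Both Shld1 arrays were below both untreated arrays, a difference of -0.16 (SE 0.15), or -0.10 without the second untreated array. Gins4, of GINS, read 7.96 and 7.83 untreated, 7.70 and 7.75 with 4OHT, and 7.88 and 7.58 with Shld1, a difference of -0.16 (SE 0.15) with 1 Shld1 array among the untreated values; it was -0.018 without the second Shld1 array and -0.10 without the first untreated one.

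Rfc3 differed by -0.18 (SE 0.15), or -0.027 without the second Shld1 array, and all 5 loader genes were again below 0 (median -0.13), with Rfc5 above 0 under both other scalings; both comparisons share the untreated arrays. Mcm2 to Mcm7 lay between -0.064 and 0.081, 3 of 6 below 0 and 1 of 6 under either other scaling. Pcna was at 0.065. Rpa3 had a difference of -0.074 (SE 0.26), which was 0.39 without the second Shld1 array and -0.53 without the first. Both Shld1 arrays were above both untreated arrays for 6 members, namely Mcm4, Orc1, Orc4, Pold1, Rpa2 and Fen1. This was 14.6%, beside 15.2% of all genes and 10.9% of genes at the members' signal levels. Both were below for 4, namely Orc2, Orc3, Rfc3 and Lig1 (9.76%, beside 17.3% and 23%). The 95% interval was within 1.5-fold for 38 of 41 members (92.7%), all but Cdc6, Rpa2 and Rpa3, and within 2-fold for all 41. All genes had 74.3% and 98.7%, and genes at the members' signal levels 83.2% and 99.5%.

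Mcm4, Orc1 and Orc4 were thus above both untreated arrays with either agent, and Orc2 and Rfc3 below, which the shared untreated arrays alone can bring about. The share of all genes placed in this way is not given here. Mcm4 read 8.126 and 8.106 untreated, 8.132 and 8.22 with 4OHT, and 8.128 and 8.27 with Shld1. Its first untreated array nearly tied with the first array of each agent. Its differences were 0.06 (SE 0.14) with 4OHT and 0.081 (SE 0.14) with Shld1. Orc1 read 7.21 and 7.29 untreated, 7.30 and 7.43 with 4OHT, and 7.32 and 7.29 with Shld1. Its second untreated array was within 0.01 of the lowest treated ones. Orc4 read 6.15 and 6.19 untreated, 6.24 and 6.39 with 4OHT, and 6.26 and 6.26 with Shld1. Its differences were 0.14 (SE 0.14) and 0.088 (SE 0.14), and those of all 3 genes were well inside 1.5-fold.

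**Figure D4:**
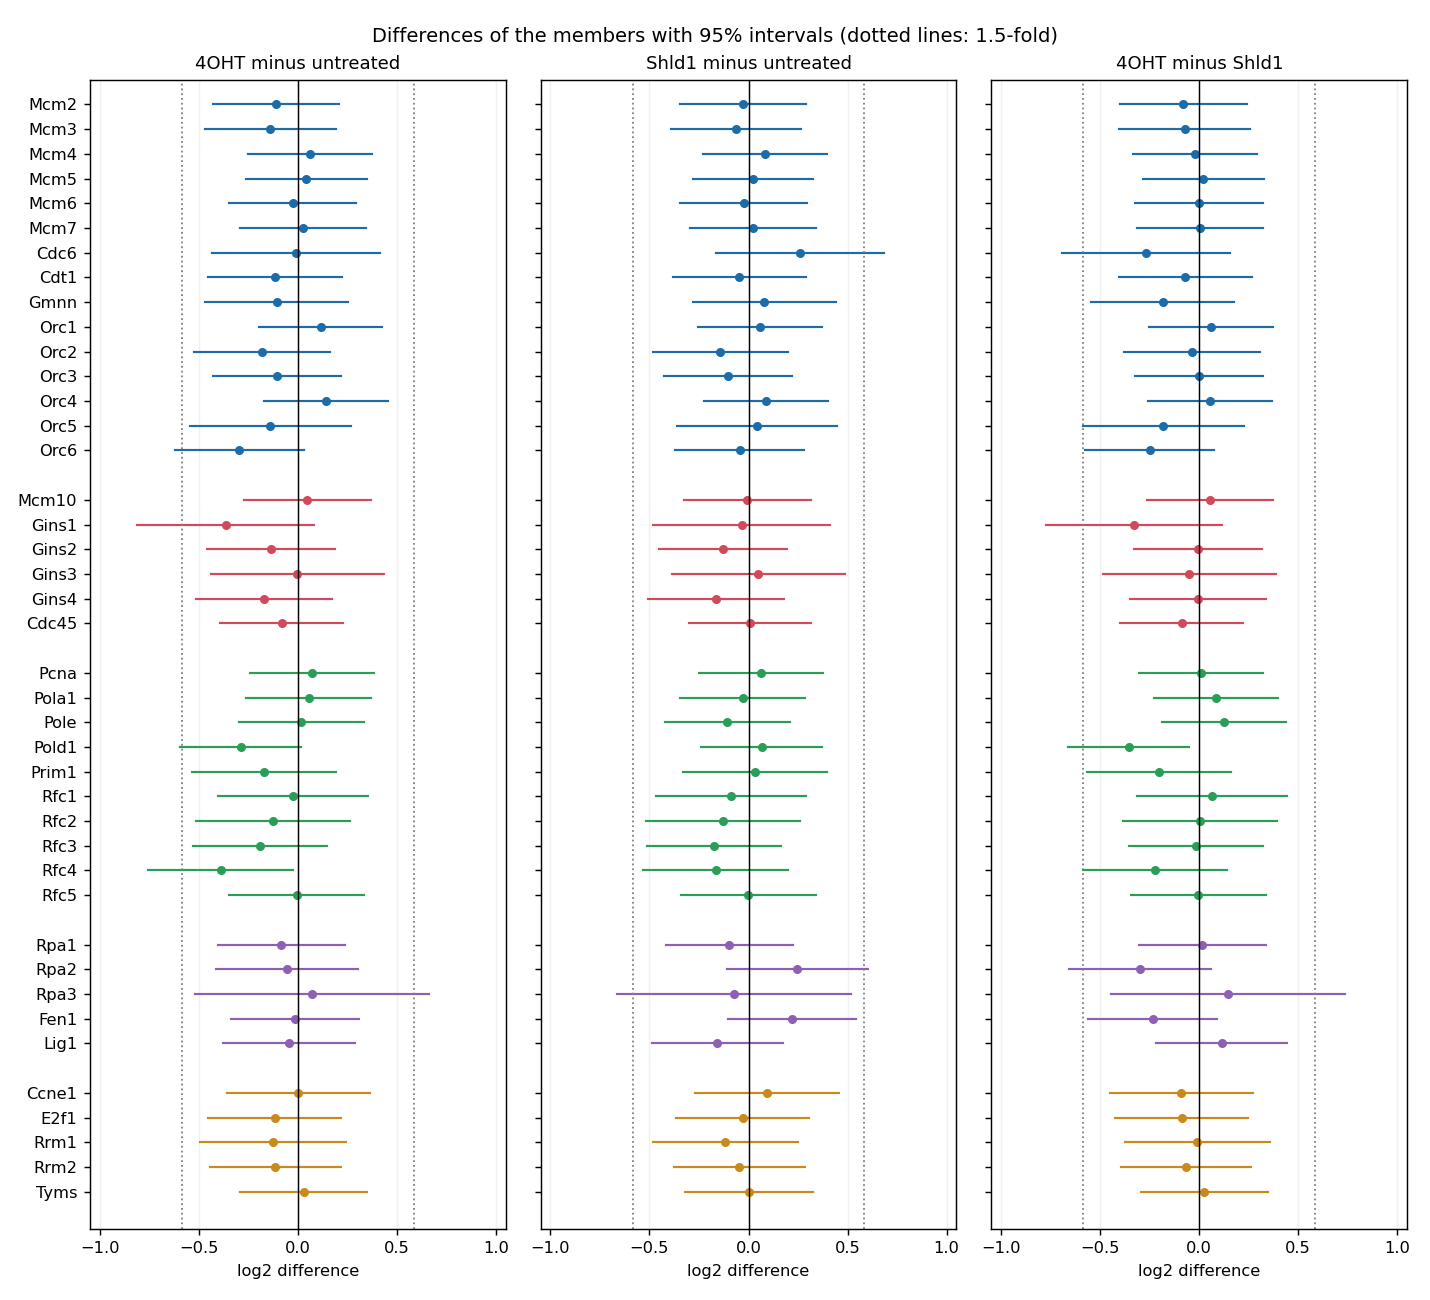
Log2 differences of the 41 members (dots) with their 95% intervals from limma (lines) in 4OHT against untreated, Shld1 against untreated and 4OHT against Shld1; colours are roles and dotted lines mark 1.5-fold. Nearly all intervals include 0, the exceptions being Rfc4 in the first panel and Pold1 in the third, neither of which passed the adjustment over all genes.

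Both agents had been given at 1 µM, and their arrays were also compared directly. Limma called 0 of 19938 genes (0%) and 0 of 41 members, with a smallest adjusted p of 0.871 for a member; 1 member (2.44%) and 1117 genes (5.6%) had an unadjusted p under 0.05. The median difference was -0.01 over the members and -0.0043 over all genes, with 27 of 41 (65.9%) and 50.9% below 0. Of genes at the members' signal levels 54.1% were below 0. Under quantile normalization and centring on the 75th percentile, 25 and 21 members were below 0 (61% and 51.2%). Of all genes these shares were 52.3% and 48.5%. The direction turned on single arrays: without 4OHT replicate 1 16 members were below 0 (median 0.033), without 4OHT replicate 2 35 (median -0.11), and without Shld1 replicate 1 and replicate 2 21 and 29. The 1 member at an unadjusted p under 0.05 was Pold1, lower with 4OHT than with Shld1, with a difference of -0.36 (SE 0.14, 95% interval -0.66 to -0.051; limma, adjusted p = 0.871, unadjusted p = 0.0266). It was -0.39 to -0.32 when single arrays were left out, and its adjusted p after quantile normalization was 0.662 (limma). Rpa2 differed by -0.30 (SE 0.16), Gins1 by -0.33 (SE 0.20), Cdc6 by -0.27 (SE 0.19), Orc6 by -0.25 (SE 0.15) and Fen1 by -0.24 (SE 0.14), the signs of these 5 being the same under both other scalings. All 5 were smaller without 4OHT replicate 1, at -0.12 for Rpa2, -0.099 for Gins1, -0.048 for Cdc6, -0.15 for Orc6 and -0.14 for Fen1. Without Shld1 replicate 1 Gins1 was at -0.13 and Cdc6 at -0.12. Both 4OHT arrays were below both Shld1 arrays for 8 members, namely Gmnn, Cdc45, Orc6, Pold1, Rfc4, Rpa2, Fen1 and Rrm2. This was 19.5%, beside 15.6% of all genes and 17.9% of genes at the members' signal levels. Pole alone was above, at 7.12 and 7.19 against 7.09 and 6.97 (2.44%, beside 14.9% and 12.3%). The 95% interval was within 1.5-fold for 34 of 41 members (82.9%) and within 2-fold for all 41. All genes had 71.6% and 98.5%, and genes at the members' signal levels 79.3% and 99.3%. These intervals are per gene and rest on the spread between arrays that may be technical duplicates. They do not show that the agents act alike.

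Medians of members with and without E2F-like letters in their windows lay close together. The 13 with the letters had a median difference of -0.03 with 4OHT and -0.02 with Shld1, and the 21 without had -0.08 and -0.01. Their untreated signals had medians of 7.37 and 7.46.

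Other genes of replication were read from lists chosen with the members. Of 47 further replication and chromatin assembly genes limma called 0 in each comparison, with medians of -0.04 with 4OHT and -0.03 with Shld1 and 33 and 28 below 0. Both directions turned with the scaling: after quantile normalization 21 and 23 were below 0, and with centring on the 75th percentile 22 and 22, all 4 medians being above 0. At an unadjusted p under 0.05 were Mtbp, a partner of treslin in origin firing, which differed by -0.35 (SE 0.15) with 4OHT, and Pold3, an accessory subunit of polymerase delta, which differed by 0.42 (SE 0.15) between 4OHT and Shld1, the opposite sign to Pold1. Of 17 nucleotide supply genes 0 were called and 0 had an unadjusted p under 0.05 (medians -0.05 with 4OHT and -0.08 with Shld1, 13 and 12 below 0, but 8 and 10 after quantile normalization and 9 and 10 with centring). Ctps, CTP synthase, read 7.43 and 7.37 untreated and 6.90 and 7.21 with 4OHT, a difference of -0.35 (SE 0.16), or -0.19 without the first 4OHT array. Paics, of purine synthesis, read 10.21 and 10.31 untreated and 10.10 and 9.895 with Shld1, a difference of -0.27 (SE 0.15), or -0.16 without the second Shld1 array.

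Of 33 genes of G1 to S control 0 were called as well, with 17 below 0 in each comparison with untreated, 18 and 12 after quantile normalization and 16 and 13 with centring. Cdkn2c, an inhibitor of Cdk4 and Cdk6, was at 4.001 ± 0.27 untreated, close to background, and differed by -0.42 (SE 0.16) with 4OHT and -0.45 (SE 0.16) with Shld1, each at an unadjusted p under 0.05. Without the second untreated array these were -0.23 and -0.26. Cdk6 differed by 0.60 (SE 0.16) between 4OHT and Shld1, with an adjusted p of 0.844 (limma), and Fbxw7, which marks cyclin E for degradation, by 0.35 (SE 0.15). The 17 genes of G2 and M phase, the phases that follow, were below 0 in 15 cases with 4OHT, with a median of -0.15. Of genes at the members' signal levels 66.9% were below 0 in that comparison. Limma called 0 of the 17, with 0 at an unadjusted p under 0.05. With Shld1 14 were below 0 (median -0.03), but 6 after quantile normalization and 8 with centring on the 75th percentile, while 15 were below 0 with 4OHT under both. Their count without 4OHT replicate 1 is not given here.

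The stem cell label was checked against its markers. All 7 stem cell markers were above background in untreated cells, from 8.79 to 12.04, and their differences lay between -0.031 and 0.077 with 4OHT (median -0.0044, 4 of 7 below 0) and between -0.17 and 0.064 with Shld1 (median -0.092, 5 of 7 below 0). The direction with 4OHT turned with the scaling, 2 and 0 of the 7 being below 0 after quantile normalization and with centring on the 75th percentile; with Shld1 it was 4 and 5. Of markers of other cells, 2 of 6 for trophoblast, 1 of 4 for mesoderm, 4 of 5 for neural cells, 5 of 6 for fibroblasts and 6 of 6 for endoderm were above 3.71 (highest 7.70, 4.06, 8.52, 5.95 and 7.05), and limma called 0 of them in any comparison. Their medians with 4OHT and with Shld1 were 0.098 and 0.17 for endoderm (highest single difference 0.61, with Shld1), 0.23 and 0.23 for mesoderm, -0.015 and -0.0042 for trophoblast, -0.022 and -0.048 for neural cells and 0.031 and -0.044 for fibroblasts. With centring on the 75th percentile the medians of the trophoblast list in both comparisons, and that of the neural list with 4OHT, lay above 0. At an unadjusted p under 0.05 were the neural markers Tubb3 with 4OHT, -0.40 (SE 0.16), and Neurod1 with Shld1, 0.60 (SE 0.16), and between the agents, -0.55 (SE 0.16), and Eomes of the trophoblast list with Shld1, -0.39 (SE 0.15). What part these cells had in the members' values was not tested. No change of a member was called. In bulk samples a change in the share of cells in S phase and one in RNA per cell could not be told apart.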

How the data were processed

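Per the labels, total RNA was labelled with biotin and hybridised to 6 single-colour arrays. The authors deposited, for each array, signals of 35556 probe sets on a log2 scale as read from the values; how they were background-corrected, summarised and normalized, as well as the build, are not given in the sources used here. Limma 3.14 appears in the submitters' processing notes, with no role. The values were used as deposited. Probe sets with 1 gene symbol in the platform annotation (21789; 1621 listed several and 12146 none) were renamed by Entrez identifier, and the brightest per gene gave 19938 genes. A mean per group was fitted over all 6 arrays with limma 3.58.1 in R 4.3.3, with empirical Bayes moderation, two-sided tests and Benjamini-Hochberg adjustment over all genes; 3 residual degrees of freedom were raised by 6.77. The number of arrays limits precision: members had a median SE of 0.15. An exact permutation test of 2 arrays against 2 cannot give p below 0.333. The steps were tested on simulated arrays with 200 changed genes. They called 5.97% of 1.5-fold, 67.9% of 2-fold and 97.4% of 3-fold changes, with a mean of 5.3 false calls. Changes of 1.5-fold thus mostly went uncalled in the simulation. The simulated noise was independent between genes and arrays, without the shifts of bright genes seen on the narrow arrays. Recovery on the real arrays can therefore differ. Members, lists and tests were chosen with earlier results of these data known. Members given with all values were the 6 with the largest statistic per comparison, the 3 brightest and 3 dimmest, and those whose arrays of a group were over 1.5-fold apart; up to 3 genes per other list, by the same statistic, could be named. RefSeq promoter windows were searched for letters only, and no protein sequences were used here. The alternatives tried were leaving out each array, a block for replicate number, quantile normalization, 75th percentile centring, array weights, moderation that was robust or followed intensity, fits of only the compared groups, dropping the dimmest 40% of genes, averaged or 1-symbol probe sets and a stricter background level.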

Additional observations from a re-analysis of the deposited data

Results flagged for a closer look

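Pold1, the catalytic subunit of polymerase delta, stood on opposite sides of the untreated arrays with the agents: both 4OHT arrays were lower and both Shld1 arrays higher. The direct comparison of 4OHT with Shld1 gave a log2 difference of -0.36 (SE 0.14; limma, adjusted p = 0.871), which did not pass. Such opposite placement was seen for 1 of 41 members (2.44%) and for 542 of 19938 genes (2.72%), and the agents share their untreated arrays.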

How the results depend on the processing

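No member was called in any comparison under any alternative run on the members; the lowest adjusted p of a member was 0.289 (limma), for Rpa3 without Shld1 replicate 1. Of 2091 single-member values under alternatives, 189 had the other sign, 6 of them from differences above 0.15 in size. The count of members at unadjusted p under 0.05 is small and moved with the fit. For 4OHT against untreated it was 1 in the primary analysis, 3 with an intensity trend, 2 without the dimmest genes, 2 with array weights and 0 with centring on the 75th percentile, and 0 to 2 when single arrays were left out. For 4OHT against Shld1 it was 1, with 3 under an intensity trend, 0 with only the groups compared and 0 to 5 without single arrays; for Shld1 against untreated it was 0 to 1 without single arrays. The median member difference ranged from -0.17 to 0.053 with 4OHT and from -0.081 to 0.017 with Shld1 when single arrays were left out, and was 0.023 with Shld1 after quantile normalization. Leaving out both narrow arrays, 4OHT replicate 1 and Shld1 replicate 2, was chosen after seeing the data; the 4OHT median was then 0.053 and the 4OHT against Shld1 count 0. Over all genes an intensity trend gave 1 call in 4OHT against Shld1, where the primary analysis gave 0. With the replicate number as a block no gene was called, and the count of members with 4OHT was 0; the labels do not tie the numbers across groups, and same-numbered deviations correlated at 0.05, -0.08 and -0.19 over all genes. The crossed pairing of 4OHT and Shld1, also added after seeing the data, gave 7 calls. Whether a member was among these 7 was not checked. The causes were not tested. All 41 members lay above background under either level. Groups of 2 arrays limit what can be seen: the median half-width of a member's 95% interval was 0.33, and signal over background limited no member.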
